A study of Mus musculus with 9 samples.

Results

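A group of 10 genes that encode subunits of voltage-gated calcium channels was followed in testis RNA of Tmem203 null mice. They were chosen by name, with earlier results of these data known. Every probe set annotated to Cacna1a, Cacna1c, Cacna1d, Cacna1e, Cacna1g, Cacna1h, Cacnb1, Cacnb2, Cacnb4 or Cacng5 and to no other gene was taken. They make up 10 of the 18193 genes with a single-gene probe set on the array and 24 of its 45037 probe sets. Testes of C57BL/6J mice were harvested at 24 weeks of age and left untreated, and 4 WT and 5 Tmem203 null samples were each hybridised to 1 Affymetrix mouse genome array. The null allele is constitutive and so was carried by every cell type of the testis. It lacks the start codon of Tmem203, and a Flpe deleter cross had removed the neo cassette that came with it. The methods state that the 2 testes of a mouse were collected separately, and no label ties a sample to an animal. The p-values below therefore set each difference against the spread of these samples, part of which may be technical. Whether 2 of them came from 1 mouse is not known, and if so the p-values could be too small.

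Tmem203 encodes a small membrane protein, and the question here is whether its loss goes with other levels of the RNAs for another route of calcium, the voltage-gated channels. A voltage-gated calcium channel opens when the membrane depolarises and lets calcium into the cell. Its pore is a large alpha1 subunit, which also sets the class of current: L type for Cacna1c and Cacna1d, P/Q type for Cacna1a, R type for Cacna1e and T type for Cacna1g and Cacna1h. Beta subunits bind the pore from the cytoplasm and help it to reach the membrane and to gate, and alpha2delta subunits do so from outside the cell. Gamma subunits are a family of small membrane proteins of which several serve glutamate receptors rather than calcium channels, and the protein of Cacng5 is one of these. In mature sperm the principal calcium entry runs through another channel, CatSper, while T-type currents have been recorded in spermatogenic cells.

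Of the 10 genes, Cacng5 and Cacnb1 were lower in null testis through probe sets detected on all 9 arrays, and no member gene was higher. The most changed Cacng5 probe set was 0.83 lower on the log2 scale. Of the 4 detected Cacnb1 probe sets, those that passed were 0.58 and 0.47 lower, the others differed by −0.07 and −0.01 and did not pass, and the mean over the 4 was 0.28 lower. A promoter of each is shown because these are the members that changed and a shared element can be looked for in them. RefSeq (GRCm38.p6) gave windows for 7 of the 10 members, and the lines below give, 5′ to 3′ on the strand of the gene, the 250 bases before 1 annotated start of each gene, with each GC box (GGGCGG, or CCGCCC on the other strand) in capitals. The Cacng5 window is chr11:107915056-107915305 on the minus strand, and the Cacnb1 window is chr11:98022628-98022877 on the minus strand.
Cacng5: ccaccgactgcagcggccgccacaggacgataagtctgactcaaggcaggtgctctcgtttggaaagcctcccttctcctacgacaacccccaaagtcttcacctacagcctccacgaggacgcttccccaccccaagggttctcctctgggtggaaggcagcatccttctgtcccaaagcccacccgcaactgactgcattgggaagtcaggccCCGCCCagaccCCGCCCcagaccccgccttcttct
Cacnb1: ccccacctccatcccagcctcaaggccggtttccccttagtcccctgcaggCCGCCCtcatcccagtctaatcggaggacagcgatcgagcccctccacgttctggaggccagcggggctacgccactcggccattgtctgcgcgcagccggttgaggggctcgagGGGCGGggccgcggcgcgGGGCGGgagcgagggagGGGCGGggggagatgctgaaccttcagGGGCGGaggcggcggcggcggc

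The Cacng5 window held 2 GC boxes and the Cacnb1 window held 5. A second RefSeq start of each gene, with windows at chr11:107911363-107911612 and chr11:98018373-98018622, had none. That the windows shown share a GC box therefore depends on which start was chosen. A GC box stood in 32.7% of the 32851 windows of this length and in 6 of the 15 member windows, which also include windows of Cacna1c, Cacna1d, Cacnb2 and Cacnb4, genes that did not pass the test. The cAMP response element TGACGTCA, which is the same on both strands, was in none of the 15 member windows and in 1.55% of all windows. CCAAT, or ATTGG on the other strand, was in 4 member windows and in 33.8% of all, and TATAAA, or TTTATA, in 1 and in 12.4%. A match of letters is a description of the window and not a binding site.

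The arrays gave a log2 signal per probe set, normalized together by Robust Multichip Average. A probe set was taken as detected when its log2 signal reached 5, a signal of 32, on at least 1 array. The medians of the 9 arrays lay between 6.96 and 7.05. The highest correlation of each array with another lay between 0.997 and 0.998 for 8 arrays and was 0.996 for WT replicate 3, which was also the lowest WT sample in 14 of the 24 member probe sets and in 27.7% of all probe sets. Tmem203 itself ranged from 9.67 to 9.93 in WT and from 9.06 to 9.13 in null samples, a log2 difference of −0.70 (SE 0.06, limma adjusted p = 2.87e-04), so the 2 genotypes did not overlap in the targeted gene. Where this probe set lies against the deleted part was not checked. One outside it would read the RNA that remains and not the deletion, and would check the labels only indirectly.

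Of the 24 member probe sets, 21 were detected, 19 of them on every array, and all 10 genes had at least 1. With limma, adjusted over all probe sets, 4 were lower and 0 were higher in null testis. Over the array 7.48% of probe sets passed in either direction and 3.36% passed as lower. Passing without adjustment, at p under 0.05, were 7 of the 24, against 23.1% of all probe sets. The methods' t-test, which the study used for its other experiments and not for its arrays, passed 4 of the 24 at its unadjusted threshold of 0.01, against 9.77% over the array. After Benjamini-Hochberg adjustment, which the study did not apply to that test, it gave 3 lower and 0 higher, against 2.41% of all probe sets as lower. Counted by gene, 3 of the 10 had a probe set that was lower, against 6.35% of all genes, and 7 had none. Cacna1e was counted only through a probe set that was not detected. Through detected probe sets 2 of the 10 genes were lower, against 6.82% of all genes with a detected probe set. Null and WT samples did not overlap, with null the lower, in the same 4 probe sets, against 6.07% over the array, and 0 lay wholly above, against 5.68%. The rule of the study's methods, which also asks for a change of at least 1.5-fold and a detected signal, kept 1 probe set, that of Cacng5, against 0.722% of the detected single-gene probe sets as lower. The study had already listed Cacng5 as lower from these same arrays, and the members were chosen with earlier results known. Their counts beside the array shares are therefore a description and not a separate check.

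The log2 difference was negative in 19 of the 24 probe sets and positive in 5, with a median of −0.06, while the median over all probe sets was −0.01 and 54.4% of them were negative. Among the 21 detected member probe sets 76.2% were negative with a median of −0.04, against 51.4% and −0.01 among all detected single-gene probe sets. Several probe sets read the same gene, so they are not independent. As the tissue is whole testis, fewer cells of a type and less RNA per cell cannot be told apart.

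**Figure D1:**
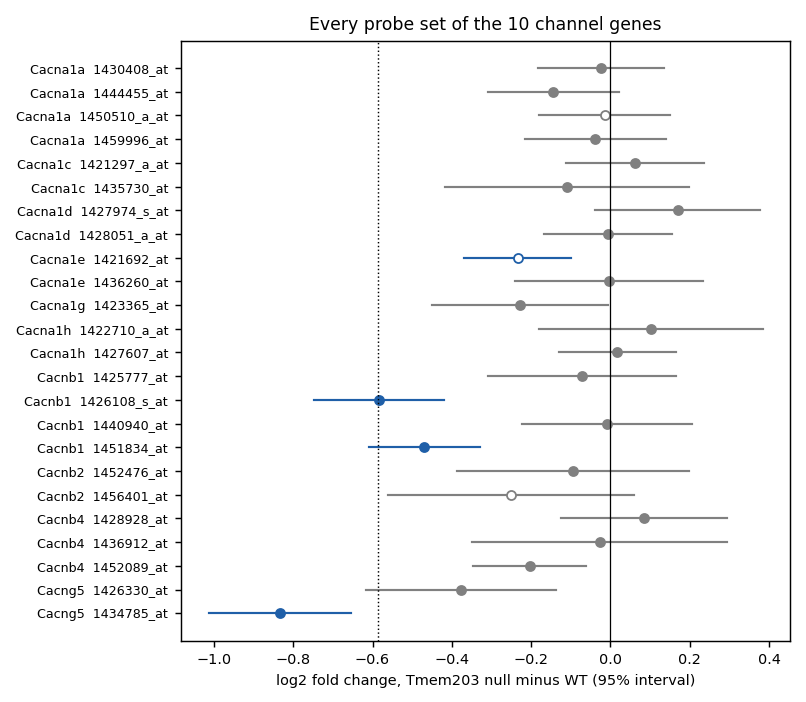
Log2 fold change (null minus WT) of each of the 24 member probe sets, with its 95% interval from limma across 4 WT and 5 null samples; blue marks an adjusted p under 0.05, an open point a probe set that was not detected, and the dotted line a 1.5-fold decrease. Cacng5 and a pair of Cacnb1 probe sets stand to the left, and 1 undetected Cacna1e probe set is also blue.

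Cacng5, the only gamma subunit among the members, had the largest difference of the 24 probe sets. Its probe set 1434785_at read 6.60, 6.45, 6.70 and 6.58 in the 4 WT samples and 5.57, 5.67, 5.71, 5.90 and 5.88 in the 5 null samples. All 5 null samples were below the lowest WT sample. The WT mean was 6.58 ± 0.10 (SD, n = 4) and the null mean 5.75 ± 0.14 (SD, n = 5), which is a log2 difference of −0.83 (95% interval −1.01 to −0.65) or 1.78-fold lower, with a limma adjusted p of 3.9e-04.

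The other Cacng5 probe set, 1426330_at, was near the limit of detection and reached it on 1 array. It read 5.17, 4.94, 4.90 and 4.57 in WT and 4.59, 4.53, 4.38, 4.45 and 4.65 in null samples. WT replicate 4 lay among the null samples, so the groups overlapped. The difference was −0.38 (95% interval −0.62 to −0.14, limma adjusted p = 0.0632) and did not pass, although the adjusted p was 0.0368 after median centring of the arrays and 0.0129 without WT replicate 4. Set against each other within a sample, the 2 probe sets differed by 0.46 in how far they moved, which did not pass (exact permutation test, two-sided, p = 0.0238, adjusted p = 0.0762 over 16 pairs). With so few samples, a pair alone at the smallest p possible would also have failed this adjustment.

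Cacnb1 encodes the beta subunit known from the skeletal muscle channel, and 4 detected probe sets read it. The probe set 1426108_s_at read 9.88, 9.78, 9.61 and 9.89 in WT and 9.23, 9.33, 9.25, 9.08 and 9.15 in null samples. Each null sample was below each WT sample. The WT mean was 9.79 ± 0.13 (SD, n = 4) and the null mean 9.21 ± 0.10 (SD, n = 5), which is a log2 difference of −0.58 (95% interval −0.75 to −0.42, limma adjusted p = 0.00164). That is 1.498-fold, just short of the 1.5-fold of the methods, and the probe set passed that rule too under 8 of the 18 alternatives tried.

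A similar fall was read by 1451834_at. Its values were 9.06, 9.15, 8.95 and 9.11 in WT and 8.70, 8.62, 8.60, 8.46 and 8.61 in null samples, again without overlap. The difference was −0.47 (95% interval −0.61 to −0.33) or 1.38-fold lower, with a limma adjusted p of 0.00219.

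The other Cacnb1 probe sets did not pass. For 1425777_at the WT samples read 8.16, 8.10, 7.74 and 8.10 and the null samples 7.74, 8.17, 8.08, 7.88 and 7.89, and for 1440940_at they read 8.35, 8.14, 7.93 and 8.11 against 7.93, 8.34, 8.10, 8.15 and 8.09. The genotypes overlapped in both. The differences were −0.07 (95% interval −0.31 to 0.17) and −0.01 (−0.22 to 0.21), with limma adjusted p of 0.73 and 0.969. The annotation ties 1425777_at and 1451834_at to the same transcript record, although only the latter passed. Their difference in change did not itself pass (exact permutation test, adjusted p = 0.0762), under the same limit of that test. An _s_at name marks a probe set that can match more than 1 transcript. Averaged over its 4 probe sets, Cacnb1 was 0.28 lower on the log2 scale (limma adjusted p = 0.0453).

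**Figure D2:**
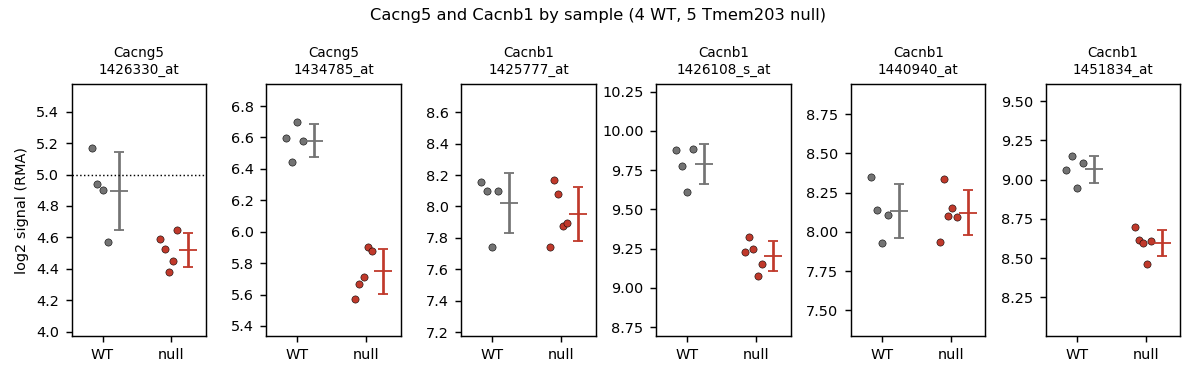
Log2 signal per sample for the 2 Cacng5 and 4 Cacnb1 probe sets; points are samples (grey, 4 WT; red, 5 null), the bar beside them is the mean ± SD, the dotted line is the detection limit of 5 where it falls in range, and each panel spans 1.6 log2 units around its own level. The groups separate in 1434785_at, 1426108_s_at and 1451834_at and overlap in the other 3 panels.

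Within a sample, the difference between 2 Cacnb1 probe sets removes what they share. The signal of 1426108_s_at minus that of 1440940_at had a WT mean of 1.66 ± 0.10 (SD, n = 4) and a null mean of 1.08 ± 0.14 (SD, n = 5). The 2 groups did not overlap, and the change of −0.57 had the smallest p that the 126 divisions of 9 samples allow, 0.00794 (exact permutation test, two-sided), which was 0.0762 after adjustment over the 16 pairs of member probe sets. With that test 0 of the 16 pairs passed. A pair alone at that smallest p could not have passed, so this result says little about the pairs. A limma fit of the differences over all 22432 pairs of detected probe sets of 1 gene was chosen after the values were seen. It passed 4.49% of all pairs and 3 member pairs, all of Cacnb1. These were −0.57 for the pair above (adjusted p = 0.00576), 0.51 for 1425777_at minus 1426108_s_at (0.00737) and 0.46 for 1440940_at minus 1451834_at (0.0412). For the pair that shares a transcript record, 1425777_at minus 1451834_at, the change was 0.40 (95% interval 0.16 to 0.63), with an adjusted p of 0.0654. The Cacnb1 probe sets that passed on their own differed from each other by −0.11 in their change (95% interval −0.26 to 0.03). Those that did not pass on their own differed by −0.06 (−0.22 to 0.09).

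**Figure D3:**
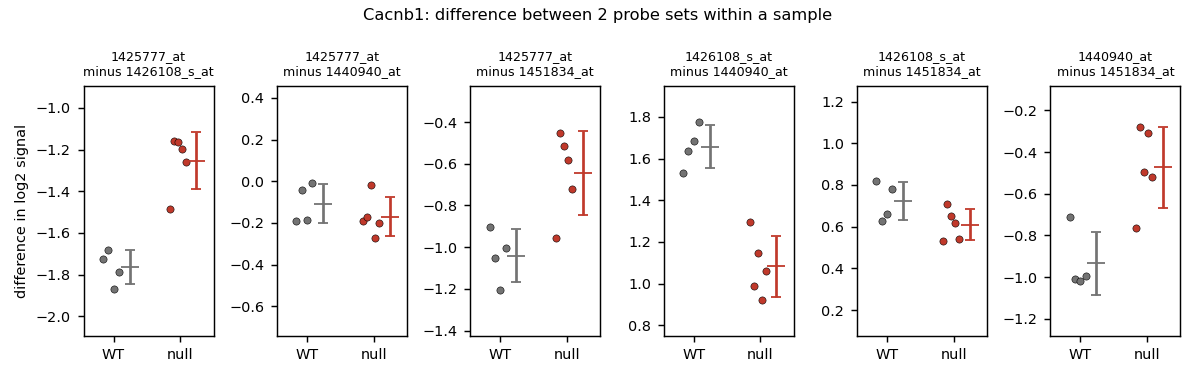
Difference in log2 signal between 2 Cacnb1 probe sets within each sample, for the 6 pairs; points are samples (grey, 4 WT; red, 5 null), the bar is the mean ± SD, and each panel spans 1.2 log2 units. The null samples lie apart from WT where 1426108_s_at is set against 1425777_at or 1440940_at, and overlap with WT in the other 4 panels.

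The other beta subunits did not pass. Cacnb4, the beta subunit best known from the cerebellum, came closest through 1452089_at, which read 7.60, 7.75, 7.47 and 7.64 in WT and 7.47, 7.42, 7.43, 7.31 and 7.43 in null samples. Only the lowest WT sample, replicate 3, reached the null range. The difference was −0.20 (95% interval −0.35 to −0.06, limma adjusted p = 0.0852). It passed in 4 of 20 alternatives, among them the one without WT replicate 3, with an adjusted p of 0.0324. Its other probe sets overlapped between genotypes, at 0.09 for 1428928_at (95% interval −0.12 to 0.29) and −0.03 for 1436912_at (−0.35 to 0.29).

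Cacnb2, a beta subunit of the cardiac channel, was at the detection limit. Its probe set 1452476_at reached the limit on 4 arrays, with values of 4.76 to 5.13 in WT and 4.43 to 5.05 in null samples and a difference of −0.10 (95% interval −0.39 to 0.20). The other, 1456401_at, was not detected on any array and gave −0.25 (95% interval −0.56 to 0.06).

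None of the 6 pore genes was called through a detected probe set. Cacna1h, a T-type pore, was read by 1422710_a_at at 10.88, 10.75, 10.23 and 10.91 in WT and 10.83, 10.93, 10.78, 10.74 and 10.69 in null samples. WT replicate 3 alone lay low, and the other WT samples were within the null range. The difference was 0.10 (95% interval −0.18 to 0.38), and 0.02 (−0.13 to 0.16) for 1427607_at. Without WT replicate 3 the first was −0.05.

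Cacna1g, the other T-type pore here, had 1 probe set, 1423365_at. It read 7.12, 6.99, 6.78 and 6.64 in WT and 6.51, 6.81, 6.62, 6.72 and 6.61 in null samples. The highest WT samples, replicates 1 and 2, lay above all null samples while the other two lay among them, and the difference of −0.23 (95% interval −0.45 to −0.01) did not pass after adjustment (limma adjusted p = 0.204). Without WT replicate 1 it was −0.15.

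Cacna1d, an L-type pore that serves pacemaking and hearing, was read by 1427974_s_at at 10.24, 10.14, 9.83 and 10.26 in WT and 10.44, 10.28, 10.25, 10.30 and 10.15 in null samples. The groups overlapped, with a difference of 0.17 (95% interval −0.04 to 0.38, limma adjusted p = 0.315), and the difference was 0.07 without WT replicate 3. For 1428051_a_at it was −0.01 (−0.17 to 0.16). Cacna1c, the L-type pore of heart and smooth muscle, gave 0.06 (−0.11 to 0.24) for 1421297_a_at and −0.11 (−0.42 to 0.20) for 1435730_at, whose WT samples alone spread from 5.53 to 6.22.

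Cacna1a, the P/Q-type pore of presynaptic terminals, gave differences of −0.02, −0.14 and −0.04 in its 3 detected probe sets, none with an adjusted p under 0.287. Its remaining probe set, 1450510_a_at, was not detected and gave −0.01. Cacna1e, the R-type pore, did not pass in its detected probe set 1436260_at, with a difference of −0.0034 (95% interval −0.24 to 0.23) over a WT range of 5.75 to 6.31.

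The other Cacna1e probe set, 1421692_at, also passed, and it was never detected. It read 3.54, 3.54, 3.77 and 3.68 in WT and 3.45, 3.33, 3.40, 3.41 and 3.42 in null samples, without overlap but below the limit on all 9 arrays. The difference was −0.23 (limma adjusted p = 0.0439), and it was lost in 10 of 16 alternatives, with adjusted p from 0.0408 to 0.149 over them. Of the 9892 undetected probe sets on the array 0.435% passed as lower, against 4.18% of the 35145 detected ones.

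**Figure D4:**
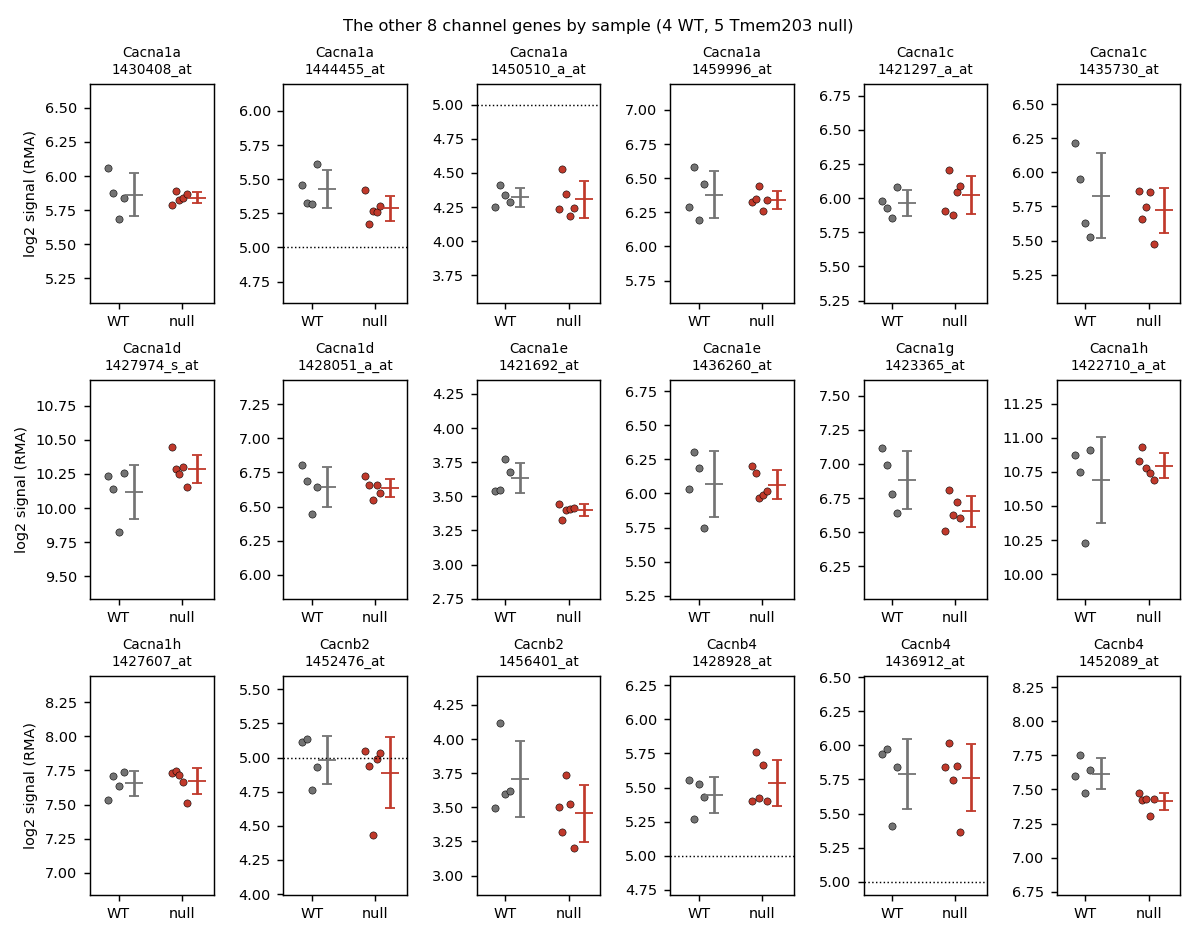
Log2 signal per sample for the 18 probe sets of the other 8 member genes; points are samples (grey, 4 WT; red, 5 null), the bar beside them is the mean ± SD, the dotted line is the detection limit of 5 where it falls in range, and each panel spans 1.6 log2 units around its own level. The genotypes overlap in every panel except that of the undetected Cacna1e probe set 1421692_at.

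The remaining subunits of the family were measured for comparison. Of 16 further genes, 14 had a single-gene probe set. They comprised the pores Cacna1b, Cacna1f and Cacna1s, the alpha2delta genes Cacna2d1 to Cacna2d4 and the gamma genes Cacng1 to Cacng4 and Cacng6 to Cacng8. Through the detected probe set with the smallest p of each gene, limma called 0 of the 14 lower and 0 higher, 3 had an unadjusted p under 0.05, and the methods' t-test called 0 after adjustment. By the same choice of probe set, 39.4% of all genes had an unadjusted p under 0.05 and 9.67% passed the methods' t-test after adjustment in either direction. Their differences ran from −0.37 to 0.12 with a median of −0.13. Over all 16180 genes with a detected probe set, 6.82% were lower, 8.03% were higher and the median was −0.03. Cacnb3 and Cacna1i were not analysed here.

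Partners and regulators of the channels included small GTPases, synaptic binding proteins, protein kinase A and its anchors, and the ryanodine receptors. Of 23 detected genes 3 were higher and 0 lower, against 8.03% and 6.82% of all genes with a detected probe set. Prkar2a, a regulatory subunit of protein kinase A, was higher by 0.58 (limma adjusted p = 0.0129), Stx1a, a syntaxin of vesicle fusion that binds presynaptic channels, by 0.32 (0.0459) and Akap7, an anchor of protein kinase A, by 0.30 (0.0491). The 4 detected probe sets of Prkar2a ranged from −0.11 to 0.58, and 2 of them passed. The other detected probe set of Stx1a gave 0.28 and did not pass (limma adjusted p = 0.168). The methods' t-test called 0 of the 23 after adjustment, against 9.67% of all genes in either direction. None of the 12 detected genes of CatSper and other sperm ion channels passed limma or the methods' t-test, 4 had an unadjusted p under 0.05, against the 39.4% of all genes, and their differences ran from −0.22 to 0.25 with a median of −0.10.

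Several cell type marker lists held genes that passed, beside 8.03% of all genes higher and 6.82% lower. Of 12 Sertoli cell markers 6 were higher and 0 lower, with a mean level of 10.53 to 10.67 in WT and 10.76 to 10.88 in null samples. Of 7 Leydig cell markers 5 were higher and 0 lower, at 10.55 to 10.97 in WT and 10.95 to 11.29 in null samples. These counts use the probe set of smallest p. Other detected probe sets of the Leydig cell genes called gave 0.34, 0.36 and 0.04, and none of these passed. Those of the Sertoli cell genes called gave 0.39, 0.13 and 0.12, which did not pass, and 0.34 and 0.18, which did. The methods' t-test called 5 of the Sertoli cell and 2 of the Leydig cell markers after adjustment, against 9.67% of all genes in either direction. Of 8 macrophage markers 2 were higher, Mrc1 by 0.41 and Cd163 by 0.58. None of the 10 markers of elongating spermatids passed, at 14.06 to 14.09 in WT and 14.04 to 14.09 in null samples, nor of the 10 of round spermatids, at 12.91 to 13.03 and 12.84 to 12.94. The mean level of the spermatocyte markers was 11.77 to 11.85 in WT and 11.65 to 11.75 in null samples, so each null sample was below each WT sample. Of 10 neuron markers 1 was higher, Tubb3 by 0.46, with levels of 6.75 to 6.83 and 6.71 to 6.79, and Nefm and Th were not detected. The methods' t-test called 1 of these macrophage and 0 of these neuron markers after adjustment. Counts of 1 to 3 passed in other lists, given here by the probe set of smallest p: Gfra1 (1.27) and Kit (0.46) higher and Sohlh1 (−0.40) lower among 9 spermatogonial markers, Dmc1 (−0.33) lower among 10 of spermatocytes, Smtn (0.42) higher among 8 of peritubular myoid cells, Egfl7 (−0.55) and Vwf (−0.37) lower among 8 of endothelium, and Sox10 (−0.74) lower among 4 of Schwann cells. Probe sets of 1 gene disagreed for some of these, with −0.17 and 0.24 for the other detected probe sets of Gfra1, 0.10 for that of Dmc1, and −0.14 and −0.12 for those of Sox10, and none of these 5 passed. Of the epididymal markers 2 were detected, Lcn8 and Rnase10, and neither passed. Their part in the lower Cacng5 and Cacnb1 signals was not tested.

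**Figure D5:**
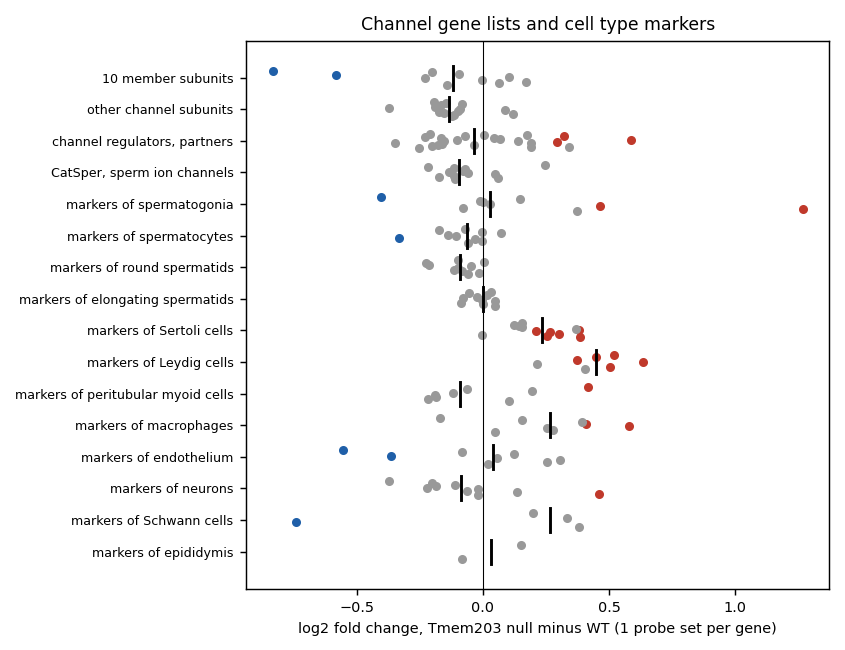
Log2 fold change (null minus WT) of each gene of the channel lists and cell type marker lists, with 1 point per gene for its detected probe set of smallest p; blue is lower and red is higher at a limma adjusted p under 0.05, grey did not pass, and a black bar marks each list's median. Cacng5 and Cacnb1 are the only blue points in the 4 channel lists.

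Genes whose signal ran most like that of a member over the 9 arrays were named as a description. For Cacng5 they were Unc45b (r = 0.991), a myosin chaperone, Rptor (r = 0.982), a subunit of the mTOR complex, and Cacul1 (r = 0.981). After each sample was set against its genotype mean, the r of these with Cacng5 was 0.862, 0.689 and 0.733. For Cacnb1 1426108_s_at they were Mapk6, Mettl9 and Gm9558, with r from 0.985 to 0.986 and from 0.852 to 0.949 after that step. For Cacnb1 1451834_at they were 0610009L18Rik, Ppp6r1 and Tmem59l, with r of 0.981 and then from 0.849 to 0.919. For the undetected Cacna1e probe set they were Cul5, Pcdh7 and Ttyh2, with r from 0.973 to 0.982. The points share their arrays, and the first r of each contains the difference between genotypes. As the genes were picked by that r on the same arrays, the second r can be raised by the choice and is not a separate check.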

How the data were processed

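Total RNA of 4 WT and 5 Tmem203 null testis samples was hybridised to Affymetrix mouse genome arrays, 1 per sample. The authors checked the scans with arrayQualityMetrics and normalized them by Robust Multichip Average (background adjustment, quantile normalization and summary per probe set), and the deposited values are log2 signals. Limma is the only tool in the submitters' processing notes, where its version is missing. Scans were not used here, so neither that normalization nor scan batches could be tested.

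Starting from these values, null and WT were compared with limma 3.58.1 (lmFit and eBayes, R 4.3.3), adjusted by Benjamini-Hochberg over 45037 probe sets, with 64 control probe sets left out. The threshold was an adjusted p of 0.05. Intervals are 95% intervals of limma, not adjusted. The number of arrays limits the precision. Symbols came from the platform annotation, updated by Entrez ID to RefSeq GRCm38.p6 (34741 of 34945 single-gene probe sets matched). Samples were grouped by their titles. Pairs of probe sets of 1 gene were compared by exact permutation over samples. The fits were tested on simulated data. Figures were drawn with matplotlib 3.10.9.

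Every probe set of the members was reported. From other lists the text names at most 3 genes that passed, of smallest p, and the 3 genes most correlated with each member probe set that passed; the others were listed as measured or absent. A gene was represented by its detected probe set of smallest p. The members and the lists were chosen with earlier results of these data known. The alternatives were other scalings, variance models, weights, filters, tests and probe set rules, and leaving out each array. Whether same-numbered samples belong together is not given, and the replicate numbers were not used to pair them in the main comparison. Deviations of same-numbered samples from their genotype means correlated at −0.073, 0.105, −0.0355 and −0.000992. Differently numbered samples were not compared, so these values cannot decide it.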

Additional observations from a re-analysis of the deposited data

Results flagged for a closer look

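In 2 of the 50 groups tested, those of the 24 member probe sets and of Tmem203 in each genotype, 1 sample stood far from the others of its genotype, by a test that flags about 1 group in 20 by chance. WT replicate 3 read 7.743 in Cacnb1 probe set 1425777_at, where the other WT samples read 8.096 to 8.157. Null replicate 3 read 4.431 in Cacnb2 probe set 1452476_at, where the other null samples read 4.937 to 5.05.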

How the results depend on the processing

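Cacng5 passed in all 20 alternatives (log2 difference −0.88 to −0.61, adjusted p 0.000217 to 0.0101) and Cacnb1 in all 20 (−0.64 to −0.28, 0.000511 to 0.0453), the smallest Cacnb1 value being the mean over its probe sets. Tmem203 passed in all 10 tried. No member probe set was higher in any of the 18 alternatives. The labels do not say whether same-numbered samples belong together. With the numbers as a replicate block 529 probe sets of the array were lower and 645 higher, against 1511 and 1856. With each array left out in turn, 910 to 1492 were lower and 998 to 2173 higher. The lower count fell by over 1.5 times without WT replicate 2 (910) and null replicates 1 (945), 3 (993), 4 (979) and 5 (927), as did the higher count (1048, 1046, 1199, 1165 and 998), while without WT replicate 3 the higher count was 2173. The methods' t-test gave 971 higher. Median centring gave 1884 lower and 1381 higher, and turned Cacnb4 (adjusted p = 0.0459) into a call, as did a further quantile normalization (0.0401) and array weights (0.0411). Limma on the differences, added after seeing the data, passed 3 pairs of probe sets against 0 by exact permutation. Signs turned only for values that did not pass: Cacna1e, to 0.0336 with array weights, 0.0086 with the replicate block and up to 0.0763 with an array left out (lowest −0.11), Cacna1h, to −0.018 with array weights and −0.0518 without WT replicate 3 (up to 0.17 with another array left out), Cacna1d, to −0.00531 without _x_at and _s_at probe sets, Cacna1c, to −0.0235 as the mean over probe sets, and Cacnb2, to 0.0192 without null replicate 3 (lowest −0.17 with another array left out and −0.19 with array weights). The cause was not tested. The number of arrays limits what can be seen.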
